A study of Mus musculus with 108 samples.

Results

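The Mecom locus was taken as the annotated gene body and 100 kb on each side, chr3:29851296-30648008 of the mouse build mm10. All fragments of the sorted reporter libraries and of the plasmid libraries that overlap this interval were included. The sorted libraries listed 449 distinct fragments there, 162 distal and 287 promoter, of 1176712 distinct fragments in all. Overlapping fragments merged into 24 distal sites of 58911 and 6 promoter sites of 17854. The division into distal and promoter lists is the study's, which set the limit at 1.5 kb from a transcription start. By the annotation used here the centres of 3 distal sites lay closer than that to a start, those at +148, +495 and +582 kb.

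The fragments came from a reporter screen in HM-1, a mouse embryonic stem (ES) cell line with a non-functional Hprt locus. Open chromatin cut by the transposase Tn5 at 5 stages of blood cell differentiation was cloned into the vector pDONR, moved into the reporter vector pSKB in front of an HSP68 minimal promoter and Venus-YFP, and integrated at Hprt, which repaired that locus. Each cell then carried 1 reporter at 1 chromosomal position, away from Mecom itself, and the endogenous Mecom alleles were left intact. The reporter cells were differentiated in serum and sorted as ES cells, FLK1+ hemangioblast (HB), first hemogenic endothelium (HE1; KIT+ TIE2+ CD41-), second hemogenic endothelium (HE2; KIT+ TIE2+ CD41+) and hematopoietic progenitors (HP; KIT+ TIE2- CD41+). At each stage YFP gates gave Negative, Low, Medium and High libraries in replicates 1 to 4, and Negative, Low and Medium/High libraries in replicate 5, so that 95 sorted libraries stood beside 5 pDONR lists, 5 pSKB lists and 3 control lists from wild-type HM-1 cells. The labels do not say that replicates came from separate transfections or cultures, so the tests measure only the spread between these samples. Whether a sorted population carried the marker genes of its stage could not be checked, since the lists hold genomic DNA.

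Mecom encodes the zinc finger transcription factor EVI1 from internal transcription starts and the longer MDS1-EVI1 protein from upstream starts, and it lies on the minus strand. EVI1 is needed by hematopoietic stem cells and is a proto-oncogene in myeloid leukemia. The gene is active in endothelium, including the hemogenic endothelium from which the first blood cells bud. A distal element that drives the reporter is an enhancer in this assay whatever its distance from the gene.

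Sites are named by the distance of their centre from the start of the internal transcript Mecom-206, in kb along the chromosome. Larger values lie further upstream of that start. The element that the study later removed from the genome covered most of the distal site at +341 kb, chr3:30353942-30354684, in intron 2 of the longest Mecom transcript. The removed interval began left of this site and ended inside it. Values given here for the element are those of the site, and the removed bases left of it were not searched for motifs. A further interval that the study assigned to Mecom lay inside the distal site at +502 kb, chr3:30514881-30515702, between the cluster of upstream starts and the most upstream start. The fragments printed below are those on which the results turn. They are the +341 kb fragment in the largest number of positive lists, the +341 kb fragment in the largest number of HP positive lists, and the fragments of the +502 kb site and of the upstream promoter site (+495 kb) in the largest number of lists. Sequences are the plus strand of mm10, 5′ to 3′, and capitals mark matches to the motifs named after them.

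+341 kb site, HE1 and HE2 fragment, chr3:30354280-30354442: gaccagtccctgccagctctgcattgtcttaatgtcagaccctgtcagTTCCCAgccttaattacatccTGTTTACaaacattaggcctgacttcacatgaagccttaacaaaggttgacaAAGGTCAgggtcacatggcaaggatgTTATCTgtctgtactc
+341 kb site, HP fragment, chr3:30354085-30354348: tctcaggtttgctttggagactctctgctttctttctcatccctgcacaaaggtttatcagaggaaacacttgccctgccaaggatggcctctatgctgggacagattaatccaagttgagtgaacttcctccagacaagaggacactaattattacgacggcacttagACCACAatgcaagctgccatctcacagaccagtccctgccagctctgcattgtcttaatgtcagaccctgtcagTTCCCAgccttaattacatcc
+502 kb site, chr3:30515043-30515283: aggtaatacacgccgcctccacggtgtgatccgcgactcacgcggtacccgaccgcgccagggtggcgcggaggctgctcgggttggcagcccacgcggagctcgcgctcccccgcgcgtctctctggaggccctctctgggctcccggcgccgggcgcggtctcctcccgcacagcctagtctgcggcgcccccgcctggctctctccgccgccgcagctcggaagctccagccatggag
+495 kb promoter site, chr3:30508533-30508788: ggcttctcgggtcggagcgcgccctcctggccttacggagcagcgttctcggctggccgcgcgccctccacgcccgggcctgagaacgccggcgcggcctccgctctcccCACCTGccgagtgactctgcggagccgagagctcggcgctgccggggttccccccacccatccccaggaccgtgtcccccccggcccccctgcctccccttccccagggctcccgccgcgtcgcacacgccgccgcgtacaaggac

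The first fragment was listed in HE1 Medium 2, HE2 Low 1 and HE2 Medium 3 and in no Negative library, and HE1 Medium 2 is a library that shared much of its list with another, as described further on. The HP fragment was listed in HP Low 1 and HP Medium 1 and overlapped the first only at its right end. The fragment of the +502 kb site was listed in 7 libraries, 5 of them Negative, and that of the upstream promoter site in 11 libraries of ES and HB cells, 3 of them Negative. Motifs were searched on both strands, with the letters TGTGGT for the RUNX family, AGATAA for the GATA family, CNGGAA for the ETS family, CAGNTG for the E-box, TGANTCA for the AP-1 dimer, GGAATG for the TEAD family, TGGGAA for the Notch partner RBPJ, GTAAACA for forkhead (FOX) factors and AAGGTCA for the NR4A receptors. The HE1 and HE2 fragment held 1 match each to RBPJ, FOX, NR4A and GATA. Of all 58911 distal windows of the same 163 bp, 17.2% held the RBPJ letters, 2.21% FOX, 3.53% NR4A and 10.8% GATA. The HP fragment held 1 RUNX match and the same RBPJ match, and 22.9% and 26.4% of distal windows of 264 bp held these letters. The +502 kb fragment, with a GC content of 74.3%, held none of these letters, and the promoter fragment, with 76.6% GC, held 1 E-box match, found in 55.4% of distal windows of 256 bp.

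The sorted lists record each distinct fragment once per library, with no number of cells, so a fragment carried by more cells and a library sequenced more deeply cannot be told apart. The locus had 851 listings, of which 466 came from replicate 1, 335 from replicate 2, and 34, 8 and 8 from replicates 3, 4 and 5. This followed depth, with a median of 60021 fragments per library in replicate 1 and 41585 in replicate 2 against 1948, 1724 and 1111 in the others. In replicate 5 all 7 distal listings lay in the +502 kb site, and 5 of them were 1 fragment, chr3:30515061-30515292, which was also listed in HE2 Negative 2. Shared fragments were ranked over pairs of libraries of the same stage and different replicates. Among these pairs HE1 Negative 3 and HE1 Low 4 shared 83.0% of the smaller list. HE1 Negative 1 and HE1 Medium 2 shared 78.5%, and the next pair shared 35.0%. Pairs within a replicate and pairs across stages were not ranked. HE1 Negative 1 listed 21 distal fragments of the locus and HE1 Medium 2 listed 22, of which 15 were shared. HE1 results are given without these 4 libraries as well where so stated, and the other HE1 results include them.

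Of the 449 fragments, 413 were listed in a positive library, 153 in a Negative library and 117 in both. Among the 162 distal fragments 151 were positive, 47 Negative and 36 both. The share of listed distal fragments that came from the locus, pooled over positive gates and replicates, was lowest in ES cells and highest at HE1. It was 1.98 per 10000 in ES (10 of 50387 fragments), 3.36 in HB (25 of 74491), 5.70 at HE1 (79 of 138693), 4.40 at HE2 (49 of 111298) and 2.74 at HP (23 of 84001). The exact binomial 95% intervals, which cover counting error only, ran from 0.952 to 3.65 in ES and from 4.51 to 7.10 at HE1 and did not overlap, while those of neighbouring stages did. Negative cells gave 1.89, 3.41, 4.37, 4.86 and 1.64 per 10000 in the same order of stages, from 4, 8, 25, 12 and 4 fragments, so that HE1 and HE2 also stood highest in cells without reporter activity. Without the 4 libraries HE1 gave 5.67 in positive and 5.1 in Negative cells. The promoter share varied less, from 3.19 in HB to 4.07 in ES positive cells and from 3.03 in ES to 4.44 at HE2 in Negative cells.

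**Figure D1:**
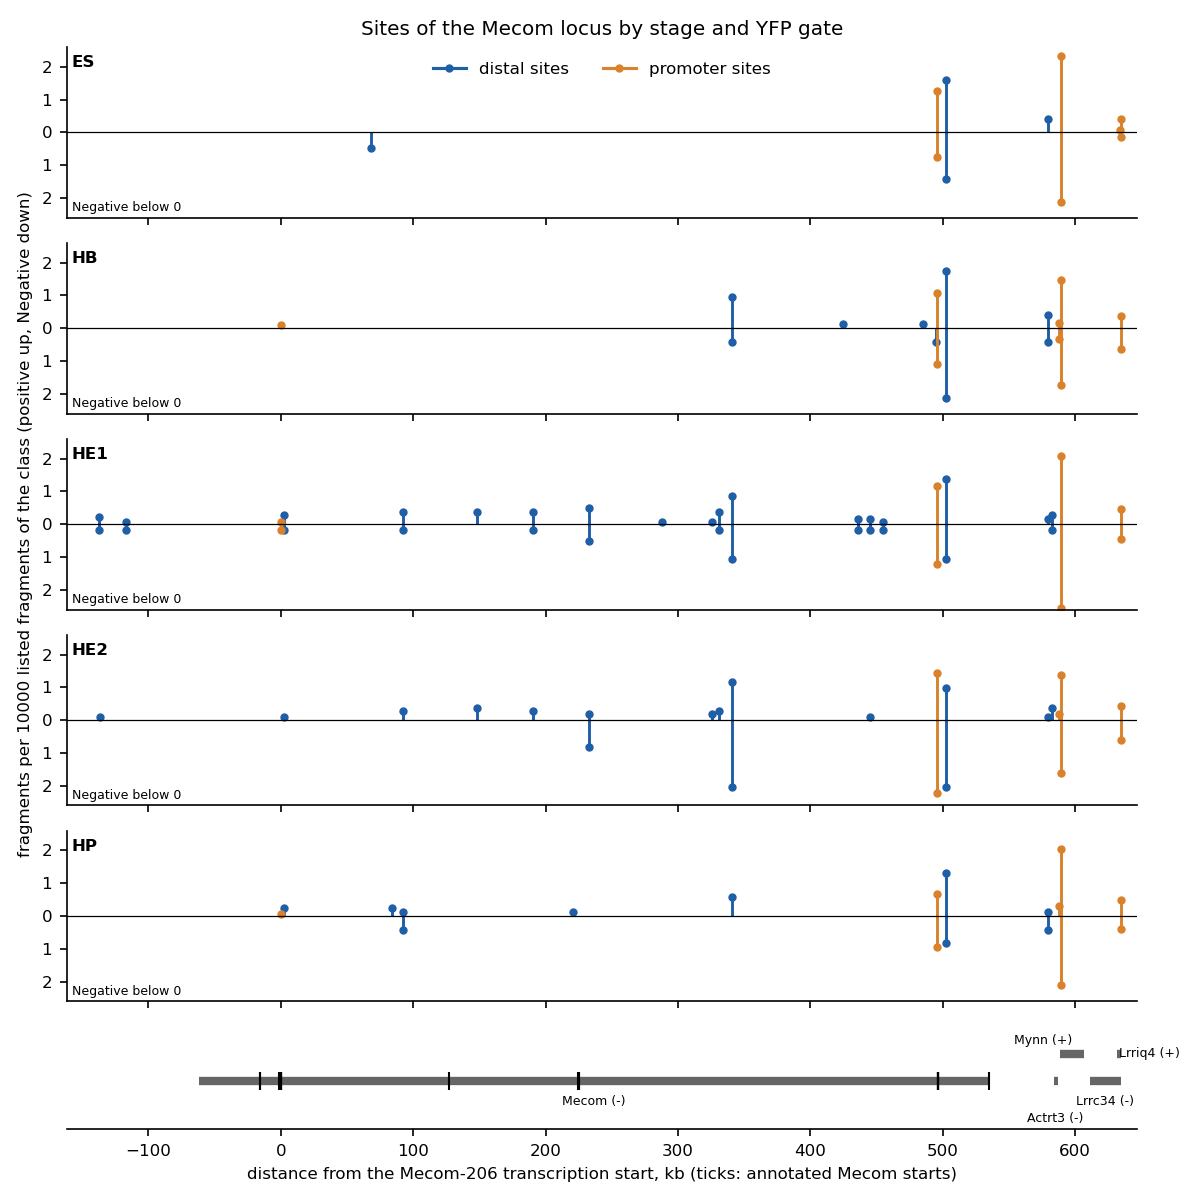
Fragments of each site per 10000 listed fragments of its class (vertical axis; positive gates above 0, Negative gate below 0, replicates pooled) against the distance of the site from the Mecom-206 start in kb, for the 5 stages, with genes and Mecom starts (ticks) underneath. Between the lowest Mecom start and the cluster of upstream starts, positive distal sites were absent in ES cells. They numbered 3 in HB, 12 at HE1, 9 at HE2 and 5 at HP. The sites at +495 (promoter), +502, +580, +589 and +635 kb recurred at every stage.

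The distal sites were also divided by the annotated starts. This division was chosen after the values were seen and was not tested. The 18 distal sites between the lowest Mecom start and the cluster of upstream starts held no positive ES fragment, which allows up to 0.595 per 10000, then 1.21 per 10000 in HB, 3.61 at HE1, 2.88 at HE2 and 1.31 at HP, from 9, 50, 32 and 11 fragments. In replicate 1 the shares were 0 in ES, 0.883 in HB, 3.13 at HE1, 2.53 at HE2 and 1.06 at HP. In replicate 2 they were 0, 1.73, 4.29, 3.15 and 1.82, in the same order of stages. Negative cells listed 1, 2, 16, 7 and 1 fragments of these sites, or 0.472, 0.853, 2.79, 2.83 and 0.411 per 10000, so that HE1 and HE2 stood highest in them too. Without the 4 libraries HE1 gave 3.48 per 10000 in positive cells (35 fragments in 11 sites) and 2.19 in Negative cells (3 fragments). The lists had been limited to ATAC-seq peaks whose stage the sources used here do not name, and the part of that step in the stage course was not tested. The 3 distal sites further upstream (+502, +580 and +582 kb) together showed no such course, although the +582 kb site alone was listed only at HE1 and HE2. Their sums were 1.98, 2.15, 1.80, 1.44 and 1.43 per 10000 from ES to HP in positive cells. The 3 sites downstream of all Mecom starts, both at -137 kb and that at -117 kb, lay in introns of the noncoding genes Gm33206 and Mannr, and their fragments came from HE1 and HE2 cells only, with 4 positive fragments at HE1 and 1 at HE2.

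**Figure D2:**
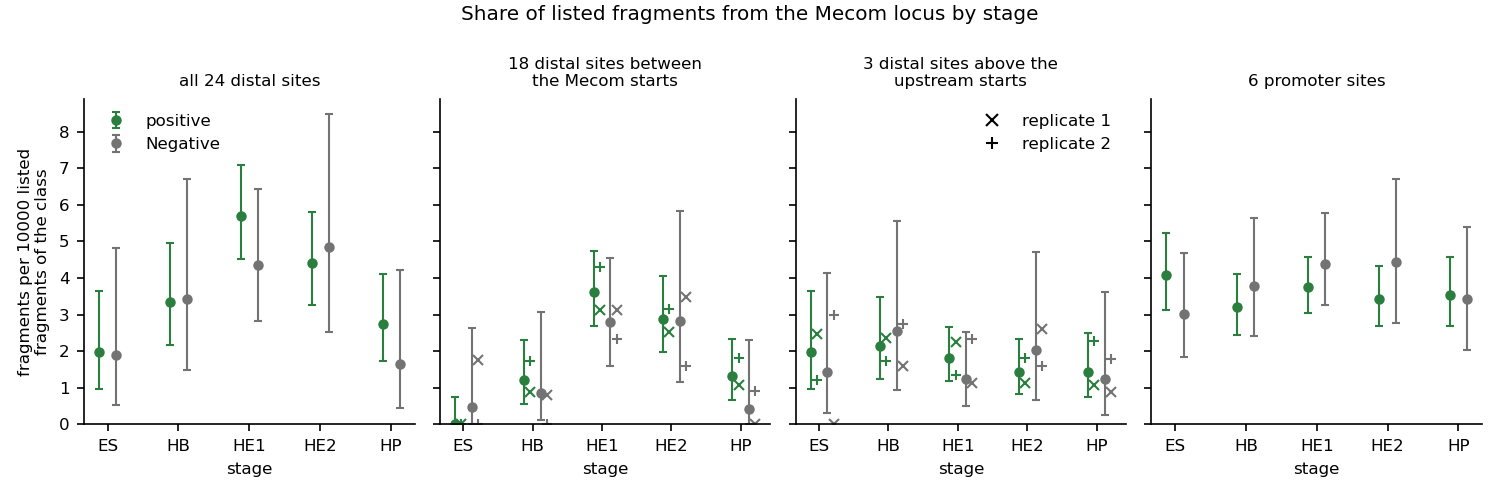
Fragments of the Mecom locus per 10000 listed fragments of the class (vertical axis) by stage, in positive (green) and Negative (grey) cells, with dots for pooled replicates, bars for exact binomial 95% intervals and, in the middle panels, crosses for replicate 1 and plus signs for replicate 2. The 18 distal sites between the lowest Mecom start and the cluster of upstream starts rise from 0 in ES to 3.61 at HE1 in positive cells. They fall to 1.31 at HP, and the promoter sites stay between 3.03 and 4.44 in all groups.

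The number of sites followed the same order. Positive distal sites numbered 2 in ES, 5 in HB, 17 at HE1, 13 at HE2 and 7 at HP. Stages differed in the number of fragments, so the number expected for an equal 50387 positive distal fragments was computed, and it was 2.00, 4.32, 12.2, 9.54 and 5.47. Over single replicates the counts at HE1 were 13, 15, 1, 0 and 1 (6.0 ± 7.35, SD, n = 5) and in ES 2, 2, 0, 0 and 1 (1.0 ± 1.0), so the spread between replicates was as large as the means. Reporter activity at HE1 or HE2 and at no other stage was found for 13 (59.1%) of the 22 distal sites with any positive fragment, beside 28.3% of the 55954 such sites of the genome. Only 2 of the 22, at +502 and +580 kb, were positive in ES cells or at all 5 stages, shares of 9.09% beside 30.38% and 11.3% of the genome. With the 4 libraries left out, 15 sites were positive at HE1 and the number expected at equal fragments was 11.7. Sites positive at HE1 or HE2 and at no other stage then numbered 11, with no share of the genome computed beside it. These shares are a description, since sites of a locus share libraries.

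**Figure D3:**
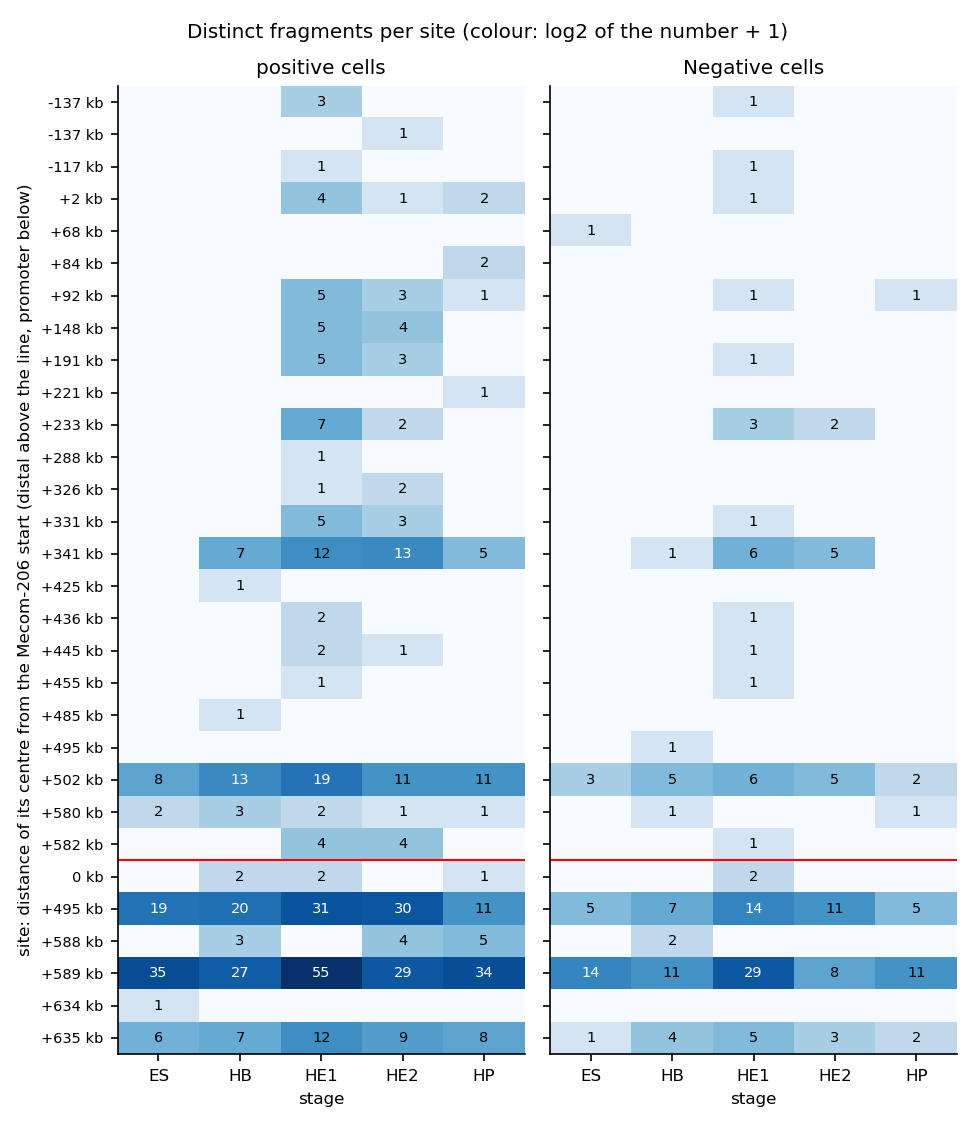
Number of distinct fragments of each site (rows, distal above the red line and promoter below) at each stage (columns) in positive and Negative cells, coloured by log2 of the number plus 1. The sites at +92, +148, +191, +233 and +331 kb were positive mainly at HE1 and HE2, whereas +502, +495 (promoter), +589 and +635 kb were positive at all 5 stages.

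Inside the Mecom gene body several smaller sites shared this timing, and others did not. The sites at +84 and +221 kb were positive at HP only, with 2 and 1 fragments. Those at +425 and +485 kb were positive in HB only, with 1 fragment each. The +233 kb site held 7 positive fragments at HE1 and 2 at HE2 and none elsewhere, with 5 Negative fragments. The sites at +148, +191 and +331 kb each held 5 positive HE1 fragments and 4, 3 and 3 positive HE2 fragments, with 0, 1 and 1 in Negative cells. The +92 kb site held 5 at HE1, 3 at HE2 and 1 at HP, and the site at +2 kb, next to the internal starts, 4, 1 and 2. Negative cells listed the +92 kb site once at HE1 and once at HP, and the +2 kb site once at HE1. Upstream of the gene, the +582 kb site over the start of the noncoding gene 1600017P15Rik held 4 positive fragments at HE1 and 4 at HE2, and 1 Negative fragment at HE1. The +580 kb site differed, with 2, 3, 2, 1 and 1 positive fragments from ES to HP and 1 Negative fragment each in HB and HP. The positive HE1 fragments without the 4 libraries numbered 4 at +92 kb, 5 at +148 and +191 kb, 4 at +233 kb, 3 at +331 kb, 1 at +2 kb and 2 at +582 kb. Of the Negative HE1 fragments of these sites 1 then remained, at +191 kb.

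The element site at +341 kb was the second largest distal site, with 36 distinct fragments and 52 listings in 29 libraries. It was positive in 10 of the 25 sets of 1 stage and 1 replicate and Negative in 5. No ES library listed it. Positive cells listed 7 distinct fragments in HB, 12 at HE1, 13 at HE2 and 5 at HP, and Negative cells 1, 6, 5 and 0. Set beside all listed distal fragments these were 0.940 per 10000 in HB (0.378 to 1.94), 0.865 at HE1 (0.447 to 1.51), 1.17 at HE2 (0.622 to 2.00) and 0.595 at HP (0.193 to 1.39), and ES cells allowed up to 0.595. It was the distal site with the highest positive share of the locus at HE2, while the +502 kb site ranked first at the other 4 stages. Corrected for fragments, the 4 later stages did not separate from one another beyond counting error. Without the 4 libraries HE1 gave 0.796.

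By replicate, the positive share of the element was 0.588, 1.44, 0, 0 and 0 per 10000 in HB. At HE1 it was 0.627, 0.888, 8.83, 0 and 0, where 8.83 stood for 1 fragment in a set of 1132. At HE2 it was 0.985, 1.57, 1.85, 0 and 0, and at HP 0.303, 1.36, 0, 0 and 0. Negative cells gave 0.796 in HB replicate 1, 1.11 and 0.772 at HE1 and 3.48 and 0.797 at HE2 in replicates 1 and 2, and 0 in every other set. Positive and Negative values overlapped at each stage. The mean positive value was 2.07 ± 3.80 per 10000 (SD, n = 5) at HE1 and 0.883 ± 0.864 at HE2, against 0.377 ± 0.530 and 0.856 ± 1.51 in Negative cells. In two-sided exact permutation tests the 5 stages gave adjusted p = 1.0 for positive against Negative, and the 4 steps between stages gave adjusted p from 0.646 to 0.897. In ES no set held a fragment. For HP positive against Negative, and for HB against ES, 2 sets with a fragment stood against none, which fixed the unadjusted exact p at 0.444, so that these 3 comparisons could not reach the threshold. Nor could HB positive against Negative, where 2 positive sets and 1 Negative set held a fragment, too few for an exact p under 0.05. The mean at HE1 rested on replicate 3, without which the difference from Negative cells was -0.09 in place of 1.69 per 10000.

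The listings of the element were spread over the gates, with 12 Negative, 12 Low, 16 Medium and 12 High. At HE1 they were 6 Negative, 5 Low, 4 Medium and 3 High, and without the 4 libraries 1, 5, 0 and 3. In replicates 1 and 2 the Medium and High cells of HB gave 0.360 and 1.53 per 10000, and the Low cells 1.06 and 1.12. At HE1 these values were 0.308 and 0.873 against 1.46 and 0.781. Without HE1 Medium 2 the value of 0.873 became that of the High cells, 0.548. At HE2 they were 1.39 and 1.51 against 0.339 and 1.41, and at HP 0.344 and 1.15 against 0.904 and 2.03. The values of Medium and High cells exceeded those of Low cells in both replicates at HE2 alone.

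The fragments of the element differed in position between stages. Their centres were measured from the centre of the merged site, and negative distances lie towards the 3′ end of Mecom. At HP all 5 positive fragments lay on that side, at a median of -127.5 bp (-225 to -96.5). At HE1 10 of 12 positive fragments lay on the other side (median 71.75 bp), at HE2 9 of 13 (median 55.0 bp) and in HB 4 of 7 (median 55.0 bp). Negative fragments lay on that other side in 5 of 6 cases at HE1 (median 59.25 bp) and 3 of 5 at HE2 (median 4.5 bp), so the position at HE1 was shared by cells without reporter activity. Of positive HE1 fragments outside the 4 libraries 7 of 8 lay there. In pDONR the fragments of the element on the 3′ side and on the other numbered 80 and 132 from HE1 chromatin, 52 and 70 from HE2 and 26 and 25 from HP. The difference in position was not tested, since fragments of a library share their source, nor was the part of plasmid representation in it. The site held 12 matches, and every motif found there except FOX and the E-box, RUNX among them, occurred in 2 places. The RUNX match at -56.5 bp lay inside 3 of the 5 HP, 1 of 13 HE2 and 3 of 12 HE1 positive fragments, and that at 257.5 bp inside none, 2 and 4 of them. The FOX, NR4A and GATA matches at 39.0, 91.0 and 116.5 bp lay inside none of the HP fragments, and inside 6, 6 and 6 of the 12 HE1 fragments and 5, 6 and 7 of the 13 HE2 fragments. Fragments listed in Negative cells held these 5 matches as well, 8 and 4 for RUNX, 8 for FOX, 7 for NR4A and 7 for GATA. Of the 8 HE1 positive fragments outside the 4 libraries, 4 held each of the FOX, NR4A and GATA matches and 2 and 3 the RUNX matches. The RBPJ match at 17.5 bp lay inside 1 HP, 6 HE1 and 5 HE2 positive fragments, and inside 8 fragments listed in Negative cells. Outside the 4 libraries 4 HE1 positive fragments held it. An ETS and an E-box match near the left end, at -275.5 and -251.5 bp, lay inside 2 HP fragments, 2 HE2 fragments, 1 HB fragment and no HE1 fragment. A second ETS match, at 354.5 bp, lay inside 2 HE1 fragments and 1 HB fragment and in none of HE2 or HP. Second matches to NR4A, GATA and RBPJ, at 282.0, 303.5 and 337.5 bp, lay inside 4, 3 and 3 HE1 fragments and no HP fragment. Of HE2 fragments 1 held that NR4A match. Outside the 4 libraries the HE1 numbers were 2 for ETS and 3 for each of the others. From ETS to RBPJ, 1, 3, 1 and 1 fragments listed in Negative cells held them. No AP-1 or TEAD letters were found in the site.

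**Figure D4:**
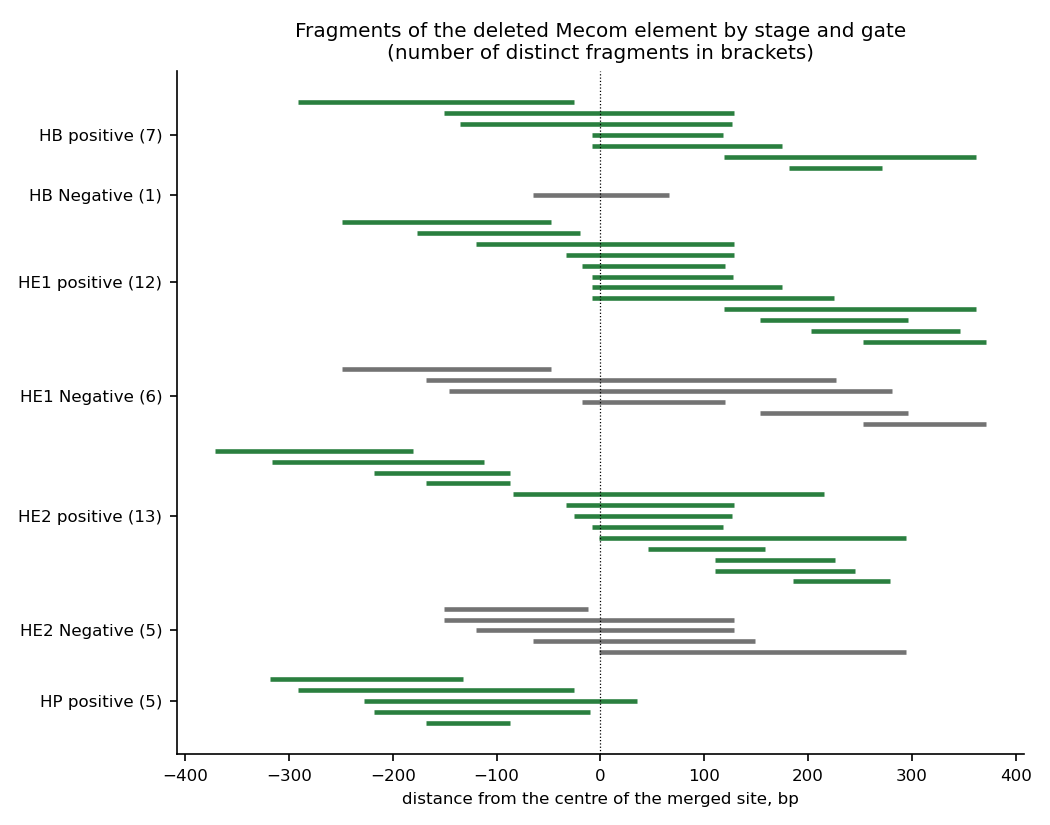
Each bar is 1 distinct fragment of the +341 kb site, drawn by its distance in bp from the centre of the site, grouped by stage and by positive (green) or Negative (grey) cells. The centres of all 5 HP positive fragments lie left of 0, and those of 10 of the 12 HE1 positive fragments lie right of it.

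The +502 kb site was the distal site listed most often, with 46 distinct fragments in 40 libraries, 45 of them positive, 15 Negative and 14 both. It was positive in 15 and Negative in 10 of the 25 sets. Positive cells listed 8 fragments in ES, 13 in HB, 19 at HE1, 11 at HE2 and 11 at HP, which was 1.59, 1.75, 1.37, 0.988 and 1.31 per 10000, and the intervals of all 5 stages overlapped. Negative cells gave 1.42, 2.13, 1.05, 2.02 and 0.822. Without the 4 libraries HE1 gave 1.59 in positive and 2.91 in Negative cells. In the limma fits its log2 difference of positive from Negative cells was 0.93 ± 0.72 (SE) in ES, 0.67 ± 1.07 in HB, -0.46 ± 1.21 at HE1 and 0.61 ± 0.92 at HE2, none past the threshold (adjusted p = 0.997 to 1.00).

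Among the promoter sites, the upstream Mecom promoter (+495 kb, chr3:30508135-30509103) held 86 distinct fragments, 79 positive and 33 Negative. From ES to HP positive cells listed 19, 20, 31, 30 and 11 of them and Negative cells 5, 7, 14, 11 and 5. Outside the 4 libraries HE1 gave 19 positive and 3 Negative fragments. The promoter over the internal starts (0 kb, chr3:30012888-30013364), from which EVI1 is made, held only 5 fragments, listed in HB (2 positive), HE1 (2 positive, 2 Negative) and HP (1 positive), and none in ES or HE2 cells. The other promoter sites belonged to neighbouring genes. That of Mynn (+589 kb), a zinc finger gene transcribed away from Mecom, was the largest site of the locus with 151 fragments, and its positive fragments numbered 35, 27, 55, 29 and 34 from ES to HP, with 35 in place of 55 at HE1 without the 4 libraries. A second site next to it (+588 kb) held 12 fragments, none of them in ES or HE1 cells. The shared promoter of Lrrc34 and Lrriq4 (+635 kb) held 32, positive at all 5 stages, and a single fragment lay beside it (+634 kb).

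The locus as a whole was compared between gates and stages with limma over all 3029 windows of its width, on log2 of distal fragments per 10000 plus 1. Positive minus Negative cells gave log2 differences of 0.73 ± 0.78 (SE) in ES, 0.66 ± 1.08 in HB, 0.35 ± 1.13 at HE1, 0.28 ± 1.30 at HE2 and 0.24 ± 0.62 at HP. The positive value exceeded the Negative in 2, 3, 3, 2 and 2 of the 5 replicates, and was below it in 1, 1, 1, 2 and 0. Between stages the differences were 0.74 ± 0.96 for HB minus ES, 0.33 ± 0.97 for HE1 minus HB, -0.10 ± 1.03 for HE2 minus HE1 and -1.60 ± 1.09 for HP minus HE2. Medium and High against Low cells gave 0.89, -0.85, -2.01, -1.67 and 0.23 from ES to HP. No comparison of the locus passed the threshold, with adjusted p from 0.965 to 1.00 in limma with Benjamini-Hochberg adjustment, and the smallest unadjusted p was 0.108, for HE1 Medium and High against Low. Of all windows tested, 0% passed in each of the 14 comparisons, with 8 to 87 windows at an unadjusted p under 0.05. Of all distal sites 0% passed in each of them, with 2 to 237 at an unadjusted p under 0.05. Of promoter sites 0.0180% (2 of 11120) passed from ES to HB and 0% in the other 13, with 20 to 295 at an unadjusted p under 0.05. The 2 called promoter sites lay outside the locus, and no site of the locus was called in any comparison.

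By gate, pooled over stages, distal listings of the locus made up 3.59 per 10000 in Negative, 4.42 in Low, 3.74 in Medium and 3.53 in High libraries, with overlapping intervals. At HE1 Low libraries stood highest, at 7.60 per 10000 (5.05 to 11.0), beside 4.81 in Negative, 5.02 in Medium and 4.70 in High libraries. These became 8.17 in Low, 5.78 in Negative and 4.18 in Medium libraries without the 4. At HP the order was 1.55 in Negative, 1.74 in Low, 3.21 in Medium and 2.28 in High libraries. The promoter listings made up 3.94, 3.18, 3.87 and 3.71 from Negative to High.

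Against the other windows of the genome, the locus moved up the order from ES to HE1. In ES positive cells 41.1% of the 3029 windows had a larger share of distal fragments, in HB 30.9%, at HE1 19.3%, at HE2 26.2% and at HP 37.2%. In Negative cells these were 39.3%, 29.3%, 25.5%, 22.6% and 45.2%. HE1 gave 19.7% in positive and 21.0% in Negative cells without the 4 libraries. For scale, 16 windows holding other regulators of blood and endothelium (Runx1, Tal1, Lyl1, Lmo2, Gata2, Fli1, Erg, Etv2, Meis1, Spi1, Gfi1, Gfi1b, Myb, Kdr, Sox17 and Sox7) were described. At HE1, 13 of them stood above Mecom, and their median share was 7.64 per 10000 beside 1.73 for all windows. None of the 16 passed the threshold in any of the 14 comparisons. From ES to HB their median log2 difference was 0.70 beside 0.05 for all windows and 0.74 for Mecom, and from HE2 to HP it was 0.12 beside -0.10 and -1.60, where 98.0% of windows stood above Mecom.

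What the screen could list depended on what had been cloned, and here the stage is that of the chromatin the plasmids were made from. The locus contributed 262, 299, 388, 355 and 307 fragments per 1000000 listed fragments to the pDONR lists from ES to HP, and 256, 300, 386, 328 and 319 to the pSKB lists, so HE1 chromatin gave most in both vectors. For the element the pDONR values were 0.530, 4.98, 24, 19.2 and 7.45 per 1000000, from 3, 31, 212, 122 and 51 fragments. The pSKB values were 0, 5.63, 21.9, 19.2 and 10.7, from 0, 11, 38, 32 and 14. The intervals of ES, HB and HE1 chromatin in pDONR did not overlap one another. The +502 kb site showed no such order, with 11.3, 13.5, 14.5, 14.3 and 11.5 per 1000000 in pDONR and 13.0, 11.8, 17.3, 14.4 and 11.5 in pSKB. The upstream promoter site rose from 18.7 in ES to 40.6 at HE1 in pDONR, and the internal promoter site was highest in HB chromatin, at 5.94. The sites at +92, +191 and +331 kb held 0, 0 and 1 fragments in the ES pDONR list and 39, 24 and 37 in that of HE1. With 1 list per vector and stage, the stages were not tested within a vector.

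**Figure D5:**
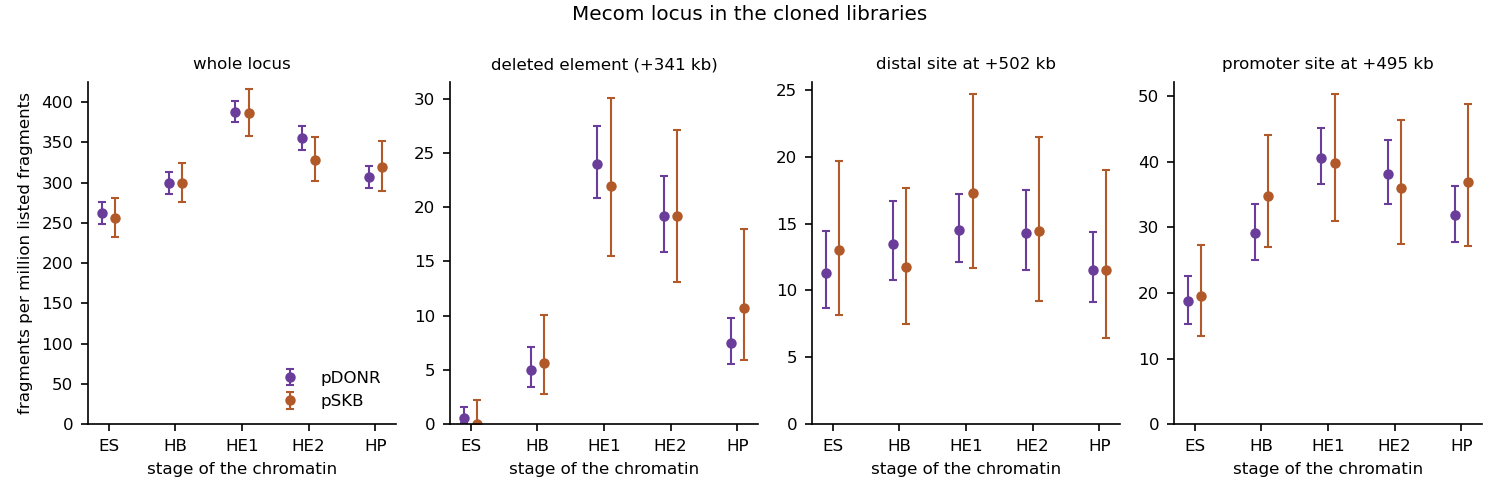
Fragments per 1000000 listed fragments (vertical axis) of the whole locus, the +341 kb site, the +502 kb site and the upstream promoter site in the pDONR (purple) and pSKB (brown) lists, by the stage of the chromatin cloned, with exact binomial 95% intervals that cover counting error only. The +341 kb site rises from 0.530 in ES to 24 at HE1 in pDONR, while the +502 kb site stays between 11.3 and 14.5.

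Of 851 listings in the locus, 765 (89.9%) matched a plasmid fragment exactly in start and end. The plasmid lists held 11223 distinct fragments of the locus, of which 394 (3.51%) were recovered in sorted cells. Within the 30 sites this was 394 of 5483 (7.19%), where all recovered fragments lay by construction, since the sites were merged from the sorted fragments. The element gave 29 of 435 (6.67%) and the +502 kb site 41 of 443 (9.26%). The sites were denser in plasmid fragments than the rest of the locus, by 43.1 to 76.0 times in pDONR and 50.3 to 93.4 times in pSKB. They were merged from fragments that the study had limited to plasmid intervals and ATAC-seq peaks. A higher density inside them was thus set by how they were defined. The 3 control lists held 2, 3 and 0 fragments of the locus, none of them in the element site. Of the sorted fragments, 1 at the +495 kb promoter site and 1 at the +589 kb promoter site matched a control fragment exactly, although the study's methods remove such intervals.

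HE1 chromatin was the most frequent source of positive distal fragments of the locus, alone or level with HE2 chromatin, at all 5 stages. For positive distal fragments of the whole genome it was also the most frequent source, except in HB, where HE2 chromatin gave 40.1%. Of the 69 HE1 positive distal fragments of the locus found in a plasmid list, 69.6% were in an HE1 list and 4.35% in an ES list, beside 52.5% and 21.3% of all such distal fragments of the genome. The share from HE1 chromatin was 75.0% in ES (6 of 8 fragments), 50.0% in HB (11 of 22), 67.4% at HE2 and 52.6% at HP, beside 37.6%, 33.4%, 58.1% and 40.3% of the genome. The HE1 value was 60.8% without the 4 libraries, beside 44.2%, and the share in an ES list was then 5.88%, beside 26.6%. At the level of single fragments, 2 of the 82 distal fragments listed at HE1 were also listed in ES cells (2.44%, beside 7.46% of the genome) and 14 at HE2 (17.1%, beside 17.7%). Of the 105 promoter fragments listed at HE1, 20 were also listed in ES cells (19.0%, beside 13.8%). Without the 4 libraries 2 of 57 distal and 16 of 67 promoter fragments of HE1 were also listed in ES cells. The part that plasmid representation had in the stage course of the locus was not tested.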

How the data were processed

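Venus-YFP reporter fragments were listed for 95 sorted libraries, 5 pDONR and 5 pSKB plasmid libraries and 3 HM-1 controls. Per the study's methods, the authors pooled 2 rounds of sequencing, used TrimGalore for trimming and Bowtie2 for alignment to mm10, wrote 1 interval per read pair, and dropped duplicates and intervals seen in wild-type HM-1 cells. They kept intervals that a plasmid list and an ATAC-seq peak also held (the sources used here do not give the stage of the peaks), in distal and promoter lists. The sorted lists were deposited as intervals with no read number, and the deposited plasmid and control lists also give a read count per interval.

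Starts of the sorted lists stood 1 bp above those of matching plasmid intervals, so sorted starts were read as counted from 1, and plasmid and control starts, counted from 0, were raised by 1 bp. The 1042 listings on sequences other than the assembled chromosomes were left out. Sets were unions of distinct fragments per stage, replicate and gate class (positive: Low, Medium, High and Medium/High). Overlapping fragments of all sorted libraries were merged into sites. Shares were taken per 10000 listed distal (or promoter) fragments, given as log2(share + 1) and tested with limma 3.58.1 (lmFit, eBayes with trend) over all windows of the locus' width, or all sites with a fragment in at least 4 sets, with Benjamini-Hochberg adjustment and a threshold of 0.05. The element was tested with exact permutation of set means (252 arrangements). Intervals are exact binomial, 95%, and cover counting error only; a count of 0 allows up to 3 fragments. Library depth ran from 504 to 131036 fragments. Motifs and annotation used mm10 sequence and GENCODE vM21.

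Alternatives were leaving out replicates, a replicate block, other filters, pseudocounts and gate sets, plasmid-identical fragments only, and 4 HE1 libraries left out (the last chosen after seeing the data). Same-numbered sets of positive and Negative cells deviated together in all 5 replicates (r over 0.1) at HE2 only (windows, r = 0.13 to 0.42). The main tests took no pairs at any stage, HE2 included, and the fit of the locus at HE2 with a replicate block is given as an alternative. Sites were named by a rule: the element, the second interval, sites over Mecom starts, the 10 sites positive in most sets, the site with the largest positive share at each stage, and any site past the threshold. The locus, its sites and the gene list were chosen with earlier results of these data known.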

Additional observations from a re-analysis of the deposited data

Results flagged for a closer look

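Values far from the rest of their group were looked for in 30 groups of 5 replicate sets, and 18 groups held 1, always a high one; chance gives about 1 in 20 groups where values spread normally, a rate not established for these groups, many of which were mostly 0. For the distal fragments of the whole locus and for the +502 kb site alike, replicate 5 stood apart in positive ES cells (17.1 per 10000), positive HB cells (35.1), positive HE2 cells (19.9) and Negative HE1 cells (52.8). The +502 kb site also stood apart in positive HE1 cells of replicate 5 (11.6). Negative cells of replicate 3 were high for the locus in HB (13.4) and HE2 (50.0), and for the +502 kb site in HB (6.71). For the element site the high values were those of HE1 positive replicate 3 (8.83), HB Negative replicate 1 (0.796), HE2 Negative replicate 1 (3.48) and HP positive replicate 2 (1.36). The +502 kb site was also high in Negative cells of replicate 2 in ES (2.99) and HP (1.79). Replicates 3 and 5 had a median of 1948 and 1111 fragments per library, and the part of set size in these values was not tested.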

How the results depend on the processing

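No site of the locus passed the threshold under any alternative, and no comparison of the locus or the element did. The signs were less stable. Of the recomputed differences of the locus, 145 kept direction and side of the threshold and 32 turned sign. Of those of the element, 66 stayed and 9 turned sign, where the ES values that stayed were 0 throughout. The other recomputed values have no direction: 144 counts of called sites stayed the same, 29 site numbers by stage stayed within the spread between replicates and 1 moved, and 2 values of plasmid identity moved. The cause was not tested. For positive minus Negative cells (log2), replicates 1 and 2 alone gave -0.26 in ES and -0.0015 at HE2, High and Medium/High libraries alone -0.43 in HB, -1.12 at HE1 and -1.07 at HE2, distal and promoter fragments together -0.27 at HE1 and -0.0189 at HP, plasmid-identical fragments -0.35 at HE1, and leaving out the 4 HE1 libraries -0.24. Means per 10000 differed by -6.02 at HE1 and -4.97 at HE2. Between stages, High and Medium/High libraries gave -0.60 (HB minus ES), -0.0424 (HE1 minus HB) and 0.0115 (HE2 minus HE1), plasmid-identical fragments -0.17 (HE1 minus HB) and 0.57 (HE2 minus HE1), both classes together -0.26 (HE1 minus HB), and means per 10000 -2.31 and 0.489. For Medium and High against Low cells, sets of at least 1000 fragments gave -0.0187 in ES, replicates 1 and 2 gave -0.38 in ES, 0.14 in HB and 0.20 at HE2, and both classes together 0.12 in HB. With plasmid-identical fragments the element differed by -0.0526 per 10000 between positive and Negative cells at HE1, by -0.190 for HE1 minus HB and by 0.740 for HE2 minus HE1. The expected number of HP positive sites was 2.63 with at least 2 fragments per site in place of 5.47, and plasmid identity was 4.11% with starts as deposited and 98.9% within 5 bp.

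Leaving out single replicates gave -0.13 to 0.91 in ES, -0.46 to 1.44 in HB, -0.39 to 0.96 at HE1 and -0.74 to 1.10 at HE2 for positive minus Negative cells, -0.0602 to 0.79 for HE1 minus HB, -0.30 to 0.0247 for HE2 minus HE1, and -0.19 to 1.11 in ES and -1.43 to 0.43 in HB for Medium and High against Low. For the element the ranges were -0.0518 to 0.360 in HB, -0.0924 to 2.24 at HE1 and -0.430 to 0.658 at HE2 per 10000, and -0.129 to 2.22 (HE1 minus HB) and -1.66 to 0.261 (HE2 minus HE1). The replicate block changed no call. Each replicate gave 1 set to each group, so the block could alter the p-values but not a difference or its sign. In the exact tests of the element the smallest p possible with the block was 0.0625, so no call could arise there. At HE2, where same-numbered sets deviated together, the locus differed by 0.28 (adjusted p = 0.893 in limma with the block). Replicates 3 to 5 list few fragments, and a list of distinct fragments gives no number of cells.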
